A study of Homo sapiens with 4 samples.

Results

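The HOX cluster genes are the homeobox genes that lie side by side in the HOXA, HOXB, HOXC and HOXD clusters of the human genome. They were taken as every protein-coding gene of GENCODE release 29 whose symbol is HOX, a cluster letter and a number. This gave 39 genes of the 34500 genes with a transcript in the deposited tables: 11 in HOXA on chromosome 7, 10 in HOXB on chromosome 17, 9 in HOXC on chromosome 12 and 9 in HOXD on chromosome 2. No measured value entered the choice.

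RNA was sequenced from MCF10A, a human breast epithelial cell line that is immortal but does not form tumours, in which every library came from cells stably expressing a scramble shRNA, a hairpin without an intended target. The 2 control libraries came from cells without added cytokine (0 h), and the other 2 libraries from cells kept for 1.5 h in medium with TGF-β1 at 5 ng/ml. TGF-β1 acts on cell-surface receptor kinases, which switch on SMAD transcription factors. The labels call the libraries of a group biological duplicates and number them 1 and 2. Nothing in them says how the duplicates were grown, so the p-values measure only the spread between these libraries.

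HOX proteins are transcription factors that bind DNA through a homeodomain and give cells their position along the body axis in the embryo. Genes of the same number in different clusters are paralogues, and low numbers are used toward the head and high numbers toward the tail and the limb tips. Adult epithelia and their cell lines keep a subset of HOX genes on, while Polycomb complexes hold the others silent. PBX and MEIS proteins are their usual DNA-binding partners.

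Levels are given as deposited TPM, a relative abundance per library, which corrects for transcript length and lets genes be compared. CPM, counts scaled by edgeR to library size, and estimated counts are used to compare libraries. The libraries held 35737659 to 40792300 estimated counts, and 3 counts in a library correspond to 0.0755 to 0.0869 CPM. Basal mammary markers were abundant, with all 6 detected and summed levels of 5067 to 8267 TPM, led by KRT5 and KRT17. The 7 luminal markers summed to 505 to 701 TPM, mostly KRT8 and KRT18, with PGR at or near 0. The 7 fibroblast markers summed to 19.8 to 28.5 TPM, mostly DCN, with COL3A1 at 0 to 0.0194 TPM, and the 7 blood and endothelial markers summed to 23.2 to 36.9 TPM, mostly CD14, with CD3E at 0 in all 4 libraries.

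In untreated MCF10A cells the HOX transcripts came mainly from HOXA and HOXC. Of the 39 genes, 13 were at or above 1 TPM in both controls: 8 of 11 in HOXA, 5 of 9 in HOXC, and 0 of 10 in HOXB and 0 of 9 in HOXD. A further 8 genes (HOXA11, HOXB2, HOXB3, HOXB4, HOXB6, HOXB9, HOXB13 and HOXC5) were lower but had enough counts to be tested. Another 7 (HOXA7, HOXA13, HOXB7, HOXC4, HOXC10, HOXD10 and HOXD11) stayed under 10 estimated counts in every library, and the remaining 11 had 0 counts in all 4 libraries. The HOXA genes summed to 50.0 and 79.3 TPM in the controls, which was 65.9% and 80.3% of all HOX TPM. HOXC summed to 20.9 and 16.3 TPM and HOXB to 5.05 and 3.13 TPM. HOXD gave 1 estimated count (HOXD11) in control replicate 1 and 0 in the other, and 2 (HOXD10) and 0 after TGF-β1. In bulk RNA, fewer cells that express a gene and less of its RNA per cell cannot be told apart.

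**Figure D1:**
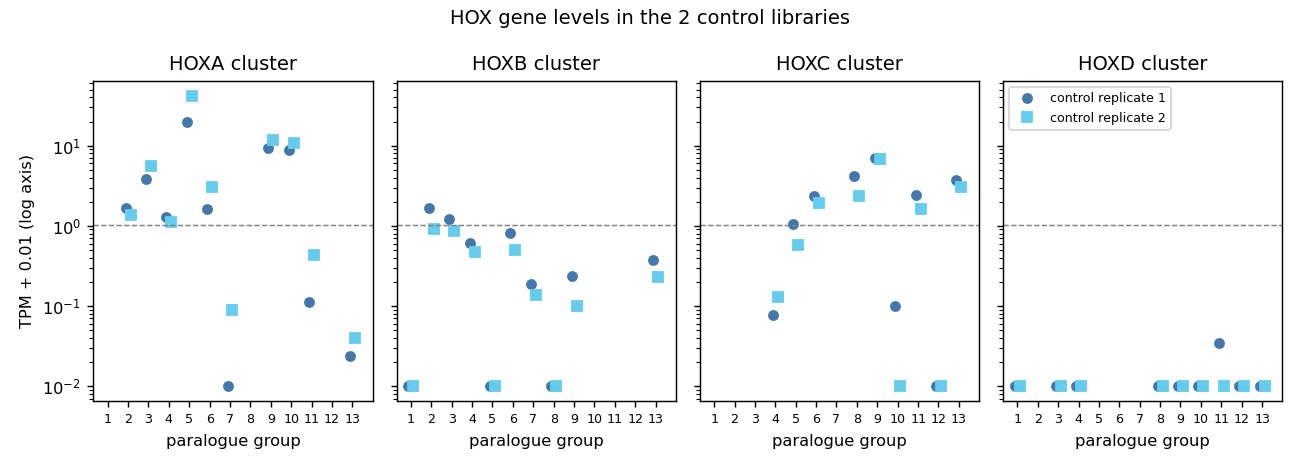
TPM of the HOX genes (1 not shown) in the 2 control libraries (log axis, with 0.01 added so that genes at 0 can be drawn), by cluster and paralogue group. The dashed line marks 1 TPM. The HOXA and HOXC genes above the line in both controls contrast with the HOXB genes, which lie around or under it, and the HOXD genes near the bottom.

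HOXA5, a central member of its cluster (chr7:27141052-27143668 on GRCh38, minus strand), had the highest level in both controls, at 19.5 and 42.1 TPM. It made up 25.7% and 42.7% of all HOX TPM, and its mean was above that of 71.6% of the 14774 tested genes. HOXA9 (9.26 and 11.7 TPM in the controls, 13.7 and 13.04 TPM after TGF-β1) and HOXA10 (8.86 and 10.8 TPM, then 10.6 and 12.9 TPM), known from blood stem cells and from the uterus, came next, and their control values overlapped. With HOXC9, at 6.99 and 6.74 TPM in the controls and 7.64 and 6.61 TPM after TGF-β1, they completed the 4 highest members, which held 58.7% and 72.3% of HOX TPM. Every other member at 1 TPM or more was under 6 TPM in the controls.

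Anterior HOXA genes, those that pattern the hindbrain and neck in the embryo, were at a few TPM. HOXA3 was at 3.83 and 5.58 TPM in the controls and 4.31 and 5.83 TPM after TGF-β1. HOXA2 was at 1.65 and 1.36 TPM, then 1.33 and 2.12 TPM. For HOXA2, one treated library lay above both controls and the other below them. HOXA4 was at 1.29 and 1.11 TPM, then 1.40 and 1.27 TPM, the lowest mean among the 13 genes. Within HOXC, HOXC6 was at 2.36 and 1.92 TPM in the controls and 2.99 and 1.77 TPM after TGF-β1, so that the groups overlapped.

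The pattern by number was not a continuous stretch. Genes at or above 1 TPM in both controls were 3 of 8 in paralogue groups 1 to 3, 5 of 15 in groups 4 to 8 and 5 of 16 in groups 9 to 13. HOXA7 lay between HOXA6 and HOXA9 with 0 to 4 estimated counts. HOXC12 and HOXC10 lay on either side of HOXC11 with 0 counts in all 4 libraries and 0 to 4 counts. HOXB13, the HOXB gene farthest from the rest of its cluster and known from the prostate, was at 0.363 and 0.218 TPM in the controls, and the HOXB genes with the highest levels were HOXB2 (1.68 and 0.905 TPM) and HOXB3 (1.22 and 0.848 TPM). For the 11 genes at 0, a limit of 3 counts per library corresponds to 0.0321 to 0.130 TPM, so lower levels were not detectable at this depth, and this covers counting error only. HOXD3 and HOXD4, both among them, share 61.9% and 78.2% of their 31-base words with transcripts of other genes, which makes them uncertain as single genes. Among tested members the highest shares were 32.8% for HOXC5, 16.2% for HOXB6 and 14.1% for HOXC6. HOXA9 had 12.3%, HOXA10 9.01% and HOXB3 6.72%. HOXA9 and HOXA10 also overlap on the same strand, so the levels of these members depend in part on how the estimation split reads.

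Several HOX genes had part of their TPM in transcripts that GENCODE lists as non-coding, and these shares were set by the estimation. For HOXA6, the transcript HOXA6-202 (814 bases, no coding sequence) held 74.8% ± 8.51 (SD, n = 4) of the gene's TPM. Its coding transcript HOXA6-201 was at 0.378 and 1.11 TPM in the controls. By coding RNA alone HOXA6 was thus under 1 TPM in control replicate 1, although it is among the 13 genes above. Non-coding transcripts averaged 53.7% of HOXA9 TPM, 43.1% of HOXA10 TPM, 31.4% of HOXC9 TPM and 18.1% of HOXA2 TPM. As shares of estimated counts, which weight long transcripts more, they ran over the 4 libraries from 39.4% to 45.1% for HOXA9, 20.9% to 25.8% for HOXA10, 9.86% to 15.4% for HOXC9 and 17.8% to 21.3% for HOXA2. HOXC8 and HOXC13 each had a single transcript in the tables, and both HOXC11 transcripts are coding. For the highest gene, HOXA5, the 329-base non-coding transcript HOXA5-202 had 3.88 and 10.3 estimated counts in the controls and 20.97 and 45.9 after TGF-β1. Its share of HOXA5 TPM was 4.06% and 5.25% in the controls and 18.4% and 18.6% after TGF-β1, a description without a test, and by estimated counts these shares were 0.470% and 0.620%, then 2.46% and 2.31%.

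After 1.5 h of TGF-β1, 2 posterior HOXC genes had the largest differences among the tested HOX genes: by edgeR, HOXC13 was 3.46-fold and HOXC11 3.84-fold higher. HOXC13 is known for its part in hair and nail keratin expression, and HOXC11 belongs to the group that patterns limbs and kidney. Their homeoboxes are shown because these genes carry the difference, together with that of HOXA11, the group 11 paralogue that was nearly off, and that of HOXA5, the highest member. Each is the 180 bases of exon 2 that encode the homeodomain, in the direction of the gene, from GENCODE release 29 transcripts on GRCh38. Capitals mark codons 48 to 52, in the recognition helix that reaches into the major groove of DNA. The HOXC13 homeobox lies at chr12:53945041-53945220 and that of HOXC11 at chr12:53975192-53975371, both on the plus strand. HOXA11 has it at chr7:27182838-27183017 and HOXA5 at chr7:27141886-27142065, both on the minus strand.
HOXC13: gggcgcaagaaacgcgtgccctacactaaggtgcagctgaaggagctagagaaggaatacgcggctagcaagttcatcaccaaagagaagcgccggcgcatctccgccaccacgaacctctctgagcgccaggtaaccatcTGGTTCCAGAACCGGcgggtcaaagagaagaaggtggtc
HOXC11: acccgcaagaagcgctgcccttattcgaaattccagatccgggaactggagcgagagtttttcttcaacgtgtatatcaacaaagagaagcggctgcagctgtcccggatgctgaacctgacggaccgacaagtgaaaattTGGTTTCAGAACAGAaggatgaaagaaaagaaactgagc
HOXA11: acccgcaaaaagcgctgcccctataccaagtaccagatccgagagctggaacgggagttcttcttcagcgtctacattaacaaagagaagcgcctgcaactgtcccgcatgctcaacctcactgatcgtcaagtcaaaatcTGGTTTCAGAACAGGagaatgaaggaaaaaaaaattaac
HOXA5: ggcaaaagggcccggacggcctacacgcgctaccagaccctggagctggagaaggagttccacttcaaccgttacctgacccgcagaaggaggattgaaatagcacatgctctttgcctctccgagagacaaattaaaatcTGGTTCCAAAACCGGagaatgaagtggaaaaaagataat

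Aligned base by base without gaps, the homeoboxes of HOXC11 and HOXC13 were identical at 108 of 180 positions (60.0%). HOXC11 was closer to its paralogues HOXA11 (82.2%) and HOXD11 (81.7%), and HOXC13 to HOXB13 (80.0%), HOXA13 (76.1%) and HOXD13 (73.9%). In spite of this likeness, the full transcripts of HOXC11, HOXC13 and HOXA11 held no 31-base word found in a transcript of another gene.

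HOXC13 (ENSG00000123364, chr12:53938765-53946544, plus strand) was at 3.74 and 3.003 TPM in the controls and 12.4 and 10.5 TPM after TGF-β1. In estimated counts, these libraries held 249 and 188, then 812 and 647. Both treated libraries lay above both controls, with a gap much wider than the spread within either group. The edgeR log2 fold change was 1.79 ± 0.18 (SE, n = 2 per group), a 3.46-fold higher level. The unadjusted edgeR quasi-likelihood p was 0.000436, and the p adjusted over 14774 genes by Benjamini-Hochberg was 0.293, so the gene did not pass the main test. It passed DESeq2, a second count test, at an adjusted p of 4.38e-08.

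HOXC11 (ENSG00000123388, chr12:53973126-53977643, plus strand) was at 2.39 and 1.62 TPM in the controls and 9.74 and 5.42 TPM after TGF-β1. Its estimated counts were 151 and 99, then 613 and 321. The treated libraries again lay above both controls, but they differed more from each other than those of HOXC13. The edgeR log2 fold change was 1.94 ± 0.36 (SE, n = 2 per group), a 3.84-fold higher level, with an unadjusted p of 0.00478 and an adjusted p of 0.971. DESeq2 gave an adjusted p of 0.000603. As split by the estimation, both coding transcripts of HOXC11 had more counts after TGF-β1. HOXC11-201 had 103 and 62.0 estimated counts in the controls and 399 and 211 after TGF-β1. HOXC11-202 had 48.1 and 37.0, then 214 and 110. Whether each transcript changed by itself was not tested.

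The edgeR test called 0 of 14774 genes (0.0%) and 0 of 21 HOX genes at an adjusted p under 0.05. At an unadjusted p under 0.05 it had 255 genes (1.73%), of which 2 were HOX genes. DESeq2 called 91 of the 16437 genes to which it gave an adjusted p (0.554%), 84 of them higher (0.511%), and its 2 HOX calls were HOXC13 and HOXC11. HOXC13 kept its DESeq2 call without control replicate 2 (adjusted p = 0.0148). Without treated replicate 1, DESeq2 no longer called HOXC13 (adjusted p = 0.0779) or HOXC11 (adjusted p = 1.00), and without control replicate 2 it no longer called HOXC11 (adjusted p = 0.132). Leaving out either of the other libraries kept both DESeq2 calls. HOXC13-AS and HOTAIR, non-coding RNAs, are annotated on the opposite strand across HOXC13 and HOXC11. The kit marks strand, but whether the quantification used it is not given in the sources used here, so reads from both strands cannot be told apart.

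**Figure D2:**
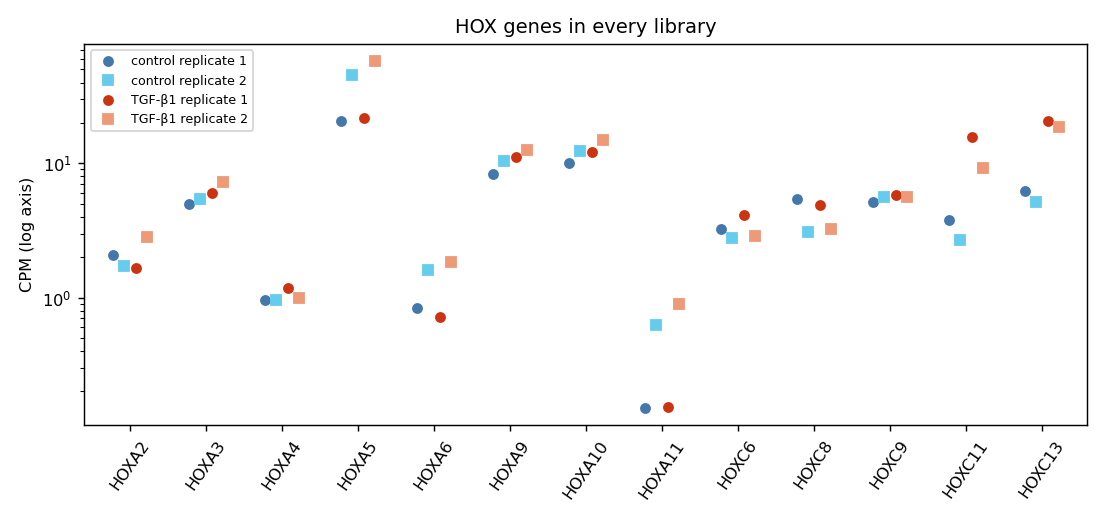
CPM (log axis) in each of the 4 libraries for the HOX genes at or above 1 TPM in both controls (1 not shown) and for HOXA11. HOXA11 entered the test between replicate numbers only through the replicate 2 libraries, so its difference is a description. HOXC11 and HOXC13 are the genes in which both TGF-β1 libraries (red and orange) lie far above both controls. HOXA5, HOXA6 and HOXA11 separate the replicate numbers (circles and squares) most widely, with replicate 2 higher. HOXA10 is also higher in replicate 2 without overlap, and HOXC6 and HOXC8 are lower in it without overlap.

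The other tested HOXC genes had smaller fold changes, as the plot along the cluster shows. HOXC11 starts 34.4 kb from the start of HOXC13, and HOXC12, which lies between them at 16.1 kb, had 0 counts in all 4 libraries. HOXC10, 46.3 kb from that start, had 2 and 0 estimated counts in the controls and 4 and 1 after TGF-β1, too few to test. HOXC9 had an edgeR log2 fold change of 0.086 ± 0.20 and HOXC6 one of 0.21 ± 0.31 (SE, n = 2 per group). HOXC8, a gene of the thoracic region, was at 4.21 and 2.35 TPM in the controls and 3.81 and 2.36 TPM after TGF-β1, a log2 fold change of -0.064 ± 0.41. HOXC11 and HOXC13 together were 29.4% and 28.3% of HOXC TPM in the controls and 58.6% and 57.8% after TGF-β1, and the sum of the other HOXC genes was 14.7 and 11.7 TPM, then 15.6 and 11.6 TPM. Differences between HOXC11 or HOXC13 and their neighbours were not tested.

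**Figure D3:**
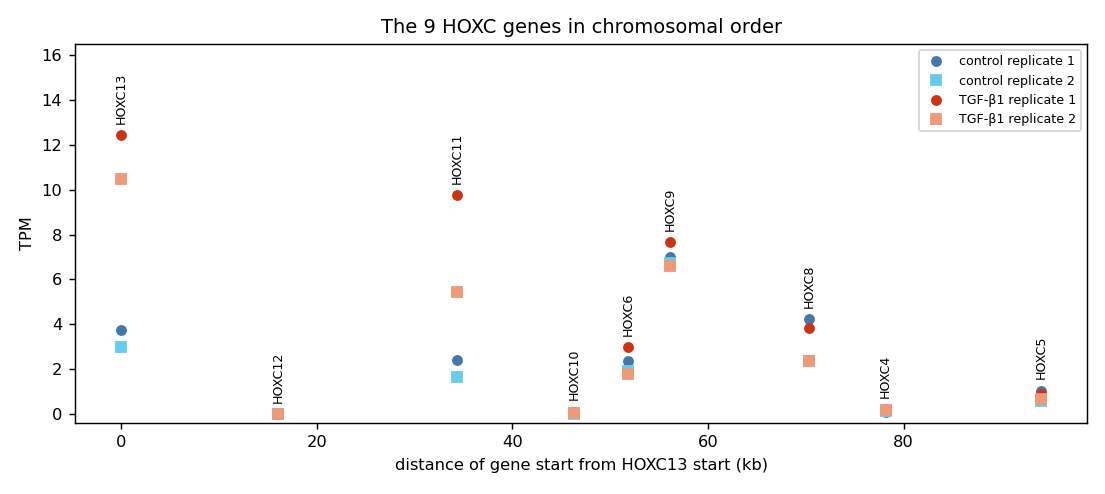
TPM of the 9 HOXC genes in each library against the distance of the annotated gene start from the start of HOXC13 in kb. The gene models of HOXC6 and HOXC4 begin upstream of other genes and span them. HOXC13 and HOXC11 have both TGF-β1 libraries above both controls by several TPM, HOXC12 is at 0 in every library, and the points of HOXC9, HOXC8 and HOXC6 overlap between the groups.

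The other 19 tested HOX genes had edgeR log2 fold changes between -0.14 and 0.43, and their smallest unadjusted p was 0.156. Those of HOXA11 and HOXB9, the upper end of this range, had standard errors of 1.10 and 0.66. The 21 tested genes had a median log2 fold change of 0.20, with 16 positive and 5 negative. Over all 14774 tested genes the median was -0.0054, with 7046 positive and 7728 negative. This difference was not tested. By cluster the medians were 0.26 in HOXA, 0.088 in HOXB and 0.15 in HOXC. Both treated libraries lay above both controls in CPM for 5 of the 21 HOX genes (HOXA3, HOXA4, HOXA9, HOXC11 and HOXC13), against 1158 of all tested genes (7.84%), and below both controls for 0, against 1235 (8.36%). HOXA9 went from 8.36 and 10.4 CPM to 11.2 and 12.5 CPM, a log2 fold change of 0.33 ± 0.19 with an unadjusted p of 0.156 by edgeR's quasi-likelihood test. HOXA3 had 0.36 ± 0.22 and HOXA4 0.18 ± 0.34, and none of these 3 passed edgeR or DESeq2.

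**Figure D4:**
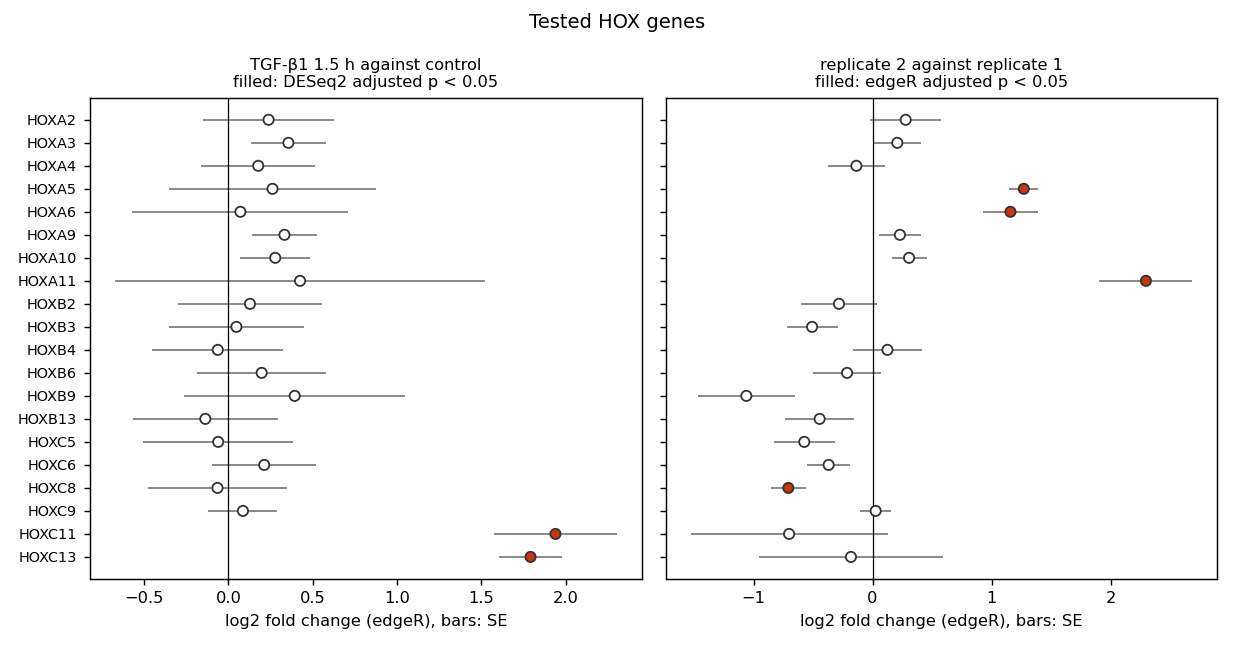
edgeR log2 fold changes of the tested HOX genes (1 not shown) with their standard errors (bars), for TGF-β1 1.5 h against control on the left and replicate 2 against replicate 1 on the right. Filled points passed DESeq2 on the left (edgeR called no gene there) and edgeR on the right. HOXA11 entered the test on the right only through the replicate 2 libraries, so its filled point is a description. HOXC11 and HOXC13 stand apart near 1.94 and 1.79 on the left, and HOXA11, HOXA5 and HOXA6 have the highest values on the right.

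**Figure D5:**
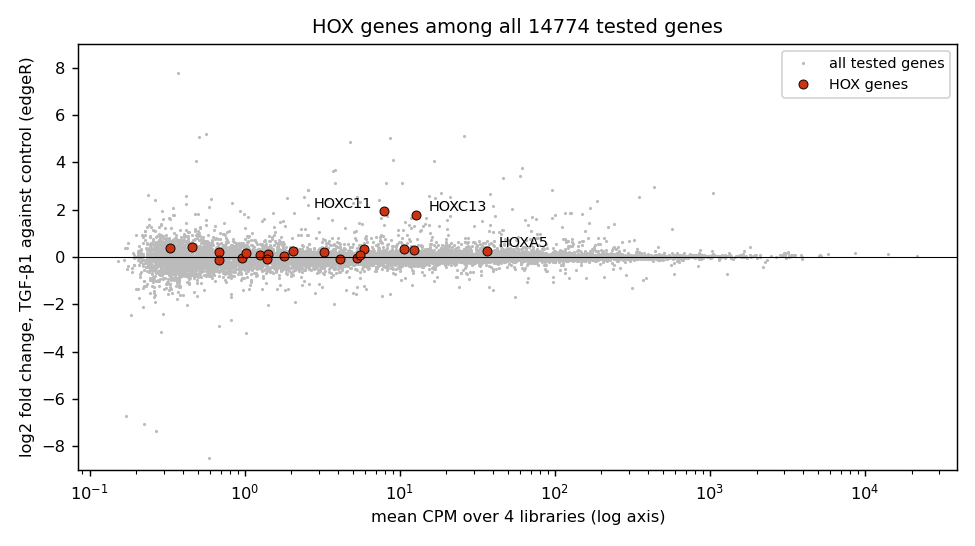
edgeR log2 fold change of TGF-β1 against control and mean CPM over the 4 libraries (log axis) for all 14774 tested genes (grey) and the 21 HOX genes (red). HOXC11 and HOXC13 lie at 1.94 and 1.79, and the other 19 HOX genes lie within 0.43 of 0.

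Replicate 2 was also compared with replicate 1, over the same 4 libraries as before. HOXA5 was at 19.5 and 23.6 TPM in the replicate 1 libraries and at 42.1 and 58.7 TPM in the replicate 2 libraries, control first in each. The ranges did not overlap. Its edgeR log2 fold change was 1.27 ± 0.12 (SE, n = 2 per number), 2.41-fold, with an adjusted p of 0.00249 by edgeR's quasi-likelihood test. DESeq2 gave 5.00e-16, and HOXA5 passed in each edgeR and DESeq2 fit that left out 1 library. The HOXA sum was 50.0 and 60.7 TPM in replicate 1 and 79.3 and 100.4 TPM in replicate 2, and without HOXA5 it was 30.5 and 37.1, then 37.1 and 41.7 TPM.

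HOXA6, the neighbour of HOXA5, was at 1.63 and 1.41 TPM in replicate 1 and 3.001 and 3.53 TPM in replicate 2, and its log2 difference was 1.16 ± 0.23 (edgeR adjusted p = 0.0167). HOXA11 had 6 and 6 estimated counts in replicate 1 and 23 and 31 in replicate 2, or 0.103 and 0.0973 against 0.421 and 0.575 TPM. It entered the test only through the replicate 2 libraries, so its log2 difference of 2.30 ± 0.39 (edgeR adjusted p = 0.0107) is a description. HOXC8 was lower in replicate 2, at 4.21 and 3.81 against 2.35 and 2.36 TPM, a log2 difference of -0.71 ± 0.15 (edgeR adjusted p = 0.0186). The values of these genes did not overlap between the replicate numbers. Leaving out any 1 library ended the edgeR call of HOXA6 (adjusted p up to 0.0888). Counted over protein-coding transcripts alone, HOXA6 did not pass either (edgeR adjusted p = 0.0828). Leaving out 1 library also ended the edgeR call of HOXC8 in most cases.

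HOXA11 and HOXB9 were under 10 counts in both libraries of one replicate number, entered the test through the other number alone, and are left out of the counts that follow. Of the other 19 tested HOX genes, 4 passed edgeR between replicate numbers, against 5524 of all 14774 tested genes (37.4%), which include genes of that kind. By direction, 2 were higher in replicate 2 (16.4% of all genes) and 2 lower (21.0%). DESeq2 called 3 of the 19, and 35.4% of all genes with an adjusted p. The calls of at least 2-fold were HOXA5 and HOXA6, and such calls were 5.84% of all genes. Replicate 2 lay above replicate 1 without overlap for 3 of the 19 (35.9% of all genes) and below it for 7 (36.6%). The 15 genes that did not pass ran from -0.70 (HOXC11) to 0.31 (HOXA10). The median log2 difference was 0.25 in HOXA, -0.28 in HOXB and -0.47 in HOXC, beside 0.0066 over all genes. HOXB9 had -1.06 ± 0.41. HOXC13 had -0.18 ± 0.78 and HOXC11 -0.70 ± 0.83 in this comparison, which pools control and treated libraries. Within each treatment, both were lower in replicate 2, HOXC11 at 1.62 against 2.39 TPM in the controls and 5.42 against 9.74 TPM after TGF-β1.

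Some markers also differed between replicate numbers, where edgeR called 16.4% of all tested genes higher and 21.0% lower. Of the 6 basal markers, TP63 was higher in replicate 2 (log2 0.34) and KRT17 (-0.77) and LAMB3 (-0.99) were lower, each past edgeR's adjusted threshold. GATA3 (0.72) was higher and KRT8 (-0.53), KRT18 (-0.29) and FOXA1 (-0.74) were lower among the luminal markers, 0 of the fibroblast markers passed, and CD14 (0.60) was higher among the blood and endothelial markers. The part of these shifts in the HOX differences was not tested. HOXA-AS3 is annotated on the opposite strand across HOXA5 and HOXA6, and HOXA11-AS across HOXA11, with the same limit on strand as above, while HOXC8 has no gene opposite. The 25 non-coding RNAs listed for the HOX clusters had no entry among the transcripts used here, so they were not analysed.

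Partners and regulators of HOX genes were taken from lists, and edgeR called 0 genes of any list after TGF-β1. Between replicate numbers, of 9 DNA-binding cofactors 2 were higher in replicate 2 and 0 lower, among them MEIS3 (log2 0.68, adjusted p = 0.0272). Among 22 Polycomb genes, which keep HOX clusters silent, 2 were higher (SUZ12 at 0.54 and RBBP4 at 0.18). The 6 lower ones were EZH2 (-0.56), which methylates histone H3, RBBP7 (-0.39), MTF2 (-0.89), PHF19 (-0.54), BMI1 (-0.20) and PHC3 (-0.37). Of 15 genes on the list of Trithorax and HOX activating complexes, which also holds CTCF, 3 were higher (MLLT3 at 0.73, MEN1 at 0.25 and ASH1L at 0.21). The 3 lower ones were CTCF (-0.18), RBBP5 (-0.18) and WDR5 (-0.15). The background shares are those given for replicate numbers above.

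Of 14 genes of the retinoic acid pathway and CDX factors, which set HOX expression in the embryo, 10 could be tested. ALDH1A3, a retinoic acid-producing enzyme, was lower in replicate 2 (-1.17, adjusted p = 0.00337), as was CYP26B1, which degrades it (-0.89, adjusted p = 0.0286). CDX1, CDX2 and CDX4 were at or near 0. RARA, a retinoic acid receptor singled out after its values were seen, was at 4.99 and 6.63 TPM in the controls and 14.8 and 10.7 TPM after TGF-β1. Its log2 fold change was 1.30, with an adjusted p of 0.712 by edgeR and 0.000949 by DESeq2.

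Of 13 tested genes that flank the clusters, 2 were higher in replicate 2 (CALCOCO1 at 0.58 and CBX5 at 0.41, on the HOXC side) and 6 lower, where edgeR called 16.4% of all tested genes higher and 21.0% lower. The lower ones were SKAP2 (-0.46) and HIBADH (-0.27) beside HOXA, CBX1 (-0.47) on the HOXB side, SMUG1 (-0.28) beside HOXC, and LNPK (-0.59) and MTX2 (-0.19) beside HOXD. LNPK and MTX2 were at 24.4 to 55.7 TPM in all libraries beside a HOXD cluster in which 7 of 9 genes had 0 counts.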

How the data were processed

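Total RNA of 4 MCF10A libraries was depleted of ribosomal RNA and sequenced as stranded paired-end libraries per the labels' protocols, although the molecule field says polyA RNA. The submitters' processing notes name kallisto and GRCh38, and the version is not given in the sources used. Per the file headers, the deposited tables hold estimated counts, which split a read among the transcripts it fits. They also hold deposited TPM values and effective transcript lengths in bases, used for the length-offset fit. Identifiers matched GENCODE release 29 for 159239 of 173259 transcripts (91.91%), and 2.242% to 2.384% of the estimated counts stayed unmatched. Counts were summed per gene and rounded, filtered with filterByExpr (14774 genes) and compared with edgeR 4.0.16 (TMM, quasi-likelihood, no covariates, Benjamini-Hochberg, threshold 0.05) in R 4.3.3. Standard errors were taken as log2 fold change over the root of F. The alternatives were DESeq2 1.42.0, limma 3.58.1 on log2(TPM + 1), other filters, scaling and counting, and leaving out libraries. A further alternative in edgeR added the replicate number as a block, or treatment as a term between replicate numbers. DESeq2 with the replicate number as a term and without each library was added after seeing the data. The scripts were tested on simulated data. The members and gene lists were chosen with earlier results of these data known. Values in every library are given for members at or above 1 TPM in both controls or with an edgeR or DESeq2 call. From the lists, genes with an edgeR call are named. The results of 1 HOX gene and 1 listed gene are not reported here. Homeoboxes were located in the longest open reading frame of a GENCODE transcript.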

Additional observations from a re-analysis of the deposited data

How the results depend on the processing

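Counts of calls depended on the tool. After TGF-β1, HOX calls went from 0 to 2 with DESeq2, with the replicate block in edgeR and with both, and were 0 to 2 over the fits leaving out a library. Calls over all genes went from 0 to 91 with DESeq2, 15 without a filter, 3 with a length offset, 335 with the replicate block and 246 with DESeq2 and the block, and were 8 to 69 leaving out a library. The block gave HOXC13 an edgeR adjusted p of 0.000224 and HOXC11 one of 0.000606. The replicate numbers are not said to mark a shared day or batch, and with 2 pairs the pairing could only be described: the difference of replicate 2 from 1 in the controls correlated with that in treated libraries at r = 0.764 across 14774 genes, which are not independent replicates. Between replicate numbers, the 5 HOX calls, HOXA11 included, became 3 with a 50-count filter, 1 at a threshold of 0.01, 3 with protein-coding transcripts only and 1 with DESeq2 and treatment as a term, and 1 to 2 leaving out a library. In edgeR with that term 7 HOX genes and 6635 genes in all passed, with HOXC11 (adjusted p = 0.00669) and HOXA10 (adjusted p = 0.0300) gained. HOXA11 enters these HOX counts as a description only, for the reason given above. The 5524 calls over all genes became 2599 at 0.01, 3584 with limma, 3528 with DESeq2 and the term, and 2325 to 4041 leaving out a library. The count of 13 genes at 1 TPM was 8 at 2 TPM and 13 to 16 with a single control. By estimated counts in place of TPM, the shares of single transcripts went from 88.4% to 98.5% (HOXA5-201), 30.1% to 48.4% (HOXA9-201), 50.4% to 66.7% (HOXA10-206), 68.6% to 87.7% (HOXC9-201) and 75.8% to 65.4% (HOXC11-201). Some signs turned. With protein-coding transcripts only, HOXA6 after TGF-β1 was at -0.65, and HOXC9 between replicate numbers was at -0.064 with a length offset and -0.11 with limma. Leaving out a library, the log2 fold changes after TGF-β1 ran from -0.18 to 0.57 for HOXA2, from -0.59 to 0.93 for HOXA5, from -0.76 to 0.62 for HOXA6, from -1.32 to 1.79 for HOXA11, from -0.063 to 0.46 for HOXC6 and from -0.42 to 0.42 for HOXC8. Between replicate numbers, where leaving out a library also unbalances treatment, they ran from -0.14 to 0.59 for HOXA2, from -0.046 to 0.40 for HOXA3, from -0.30 to 0.012 for HOXA4, from -0.080 to 0.11 for HOXC9, from -1.88 to 0.65 for HOXC11 and from -1.43 to 0.92 for HOXC13. HOXC13 and HOXC11 after TGF-β1 and HOXA5, HOXA6, HOXA11 and HOXC8 between replicate numbers kept their sign in every alternative that gave a value; HOXA11 was under the 50-count filter and had no adjusted p in some DESeq2 fits. The cause of these shifts was not tested.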
